A study of Homo sapiens with 6 samples.

Results

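The mitochondrial chromosome of human cells encodes 13 proteins, 2 rRNAs and 22 tRNAs, and the RNA of these 37 genes was compared between untreated and interferon β (IFNβ)-treated HT1080 cells. The members were all genes of the deposited table whose identifier maps to a symbol starting with MT- on the mitochondrial chromosome, which gave 37 of the 62710 genes. HT1080 is an established human fibrosarcoma cell line. Untreated cells (n = 3 libraries) served as controls for cells given IFNβ at 20 ng/mL for 24 h (n = 3 libraries), and no other agent or genetic change was listed for either group. The labels and the cell culture methods of the study name human IFNβ for these cells, whereas its sequencing methods name the mouse protein. The libraries were made from mRNA enriched from total RNA and read as pairs of 150-base reads. The study states that its in vitro results come from at least 3 independent biological replicates, a statement that does not name the sequencing libraries. Nothing in the labels says whether the 3 libraries of a group came from separate cultures. The p-values therefore measure the spread between these libraries, which may be technical. All values are from 1 cell line, and a change in the number of mitochondrial genomes per cell cannot be told apart here from a change in RNA per genome.

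Both strands of the mitochondrial chromosome are transcribed into long precursors that cover many genes. In most of the precursor the tRNA genes lie between the rRNA and protein-coding genes, and cutting at the tRNA ends releases the individual RNAs. The mature mRNAs other than that of MT-ND6 receive poly(A) tails, which for some of them complete a stop codon that the genome leaves unfinished, whereas tRNAs end in an added CCA. The encoded proteins are core subunits of respiratory complexes I, III and IV and of ATP synthase, called complex V, while all factors that copy, cut and degrade these RNAs are encoded in the nucleus.

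The tRNA genes are shown because the results by position turn on them. Sequences are from GENCODE release 29 on GRCh38, 5′ to 3′ on the strand of the gene, with the anticodon in capitals. MT-TV (valine) at chrM:1602-1670 on the plus strand, MT-TM (methionine) at chrM:4402-4469 on the plus strand, MT-TR (arginine) at chrM:10405-10469 on the plus strand and MT-TE (glutamic acid) at chrM:14674-14742 on the minus strand were lower after IFNβ, and MT-TP (proline) at chrM:15956-16023 on the minus strand was higher.
MT-TV: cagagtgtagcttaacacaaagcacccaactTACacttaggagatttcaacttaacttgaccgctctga
MT-TM: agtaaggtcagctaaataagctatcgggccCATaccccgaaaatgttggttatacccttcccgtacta
MT-TR: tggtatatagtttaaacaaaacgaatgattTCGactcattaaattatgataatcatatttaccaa
MT-TE: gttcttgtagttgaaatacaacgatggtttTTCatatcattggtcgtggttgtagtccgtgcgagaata
MT-TP: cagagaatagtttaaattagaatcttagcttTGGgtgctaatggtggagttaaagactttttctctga

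The ends of the 3 complex IV coding sequences and of MT-ND6 are shown because these mRNAs changed in different directions or by different amounts. The capitals mark the annotated stop codon, or for MT-CO3 the single base of a stop codon that the poly(A) tail completes. The intervals are chrM:7431-7445, chrM:8255-8269 and chrM:9975-9990 on the plus strand, and chrM:14149-14163 on the minus strand.
MT-CO1: tacataaaatctAGA
MT-CO2: gtatttaccctaTAG
MT-CO3: tattgatgagggtctT
MT-ND6: gctcgggggaatAGG
An incomplete stop codon was found in 6 of the 13 coding sequences (MT-ND1, MT-ND2, MT-CO3, MT-ND3, MT-ND4 and MT-CYB). MT-ATP8 and MT-ATP6 share 46 bases at chrM:8527-8572, in which the capitals mark the first codon of MT-ATP6 and the stop codon of MT-ATP8.
MT-ATP8 and MT-ATP6: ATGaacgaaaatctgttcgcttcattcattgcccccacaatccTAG
MT-ND4L and MT-ND4 share 7 bases and MT-ATP6 and MT-CO3 share 1 base, so reads on these bases belong to both genes.

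Levels are given as FPKM, fragment numbers adjusted for the length of a gene and the depth of its library. Comparisons between genes stay rough, since the tRNA genes are shorter than the reads and the libraries were enriched for mRNA. The FPKM stepped by whole fragments, which gave between 22848104 and 32915500 fragments per library as the depth. At this depth the protein-coding genes held between 3786 and 242039 fragments in a library, the rRNA genes between 5877 and 82542, and the tRNA genes between 0 and 912, so that single tRNA values carry the most counting error. Among the 20 genes with the highest mean FPKM of the whole table, 11 were mitochondrial. Interferon-stimulated genes checked the treatment, with ISG15 at 10.5 ± 0.473 FPKM in untreated and 1448 ± 30.1 in treated cells (mean ± S.D., n = 3 each). Of the mesenchymal markers, 6 of 7 passed the filter, with a summed level of 623 to 673 FPKM in untreated and 597 to 614 in treated libraries, led by VIM, while the 3 leukocyte markers summed to at most 0.0685 FPKM and the 2 endothelial markers to at most 0.362. Of the 4 epithelial markers only KRT8 passed the filter, and it rose from 33.8 ± 1.04 to 72.5 ± 0.604 FPKM.

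All 37 mitochondrial genes passed the filter on low values (a mean of at least 0.1 FPKM over the 6 libraries) and were tested with limma on log2(FPKM + 0.1) among 20716 genes. At a Benjamini-Hochberg adjusted p under 0.05, 16 of the 37 fell and 2 rose, beside 17.5% of all genes tested that fell and 15.2% that rose. Counting as differentially expressed genes (DEGs) those that in addition changed by 1 or more on the log2 scale, 6 mitochondrial genes were lower DEGs, beside 0.739% of all genes tested. They were MT-RNR1, MT-RNR2, MT-TV, MT-TM, MT-TE and MT-TR, and none of them encodes a protein. In 19 of the 37 every treated library lay below every untreated one, beside 24.3% of all genes, and in 3 every treated library lay above, beside 22.3%. The median log2 fold change was -0.44 over the 37 genes and 0.00017 over all genes tested. Together the 37 genes took 3.06 ± 0.131% of the fragments of the untreated libraries and 2.74 ± 0.0147% of those of the treated libraries, without overlap between groups.

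**Figure D1:**
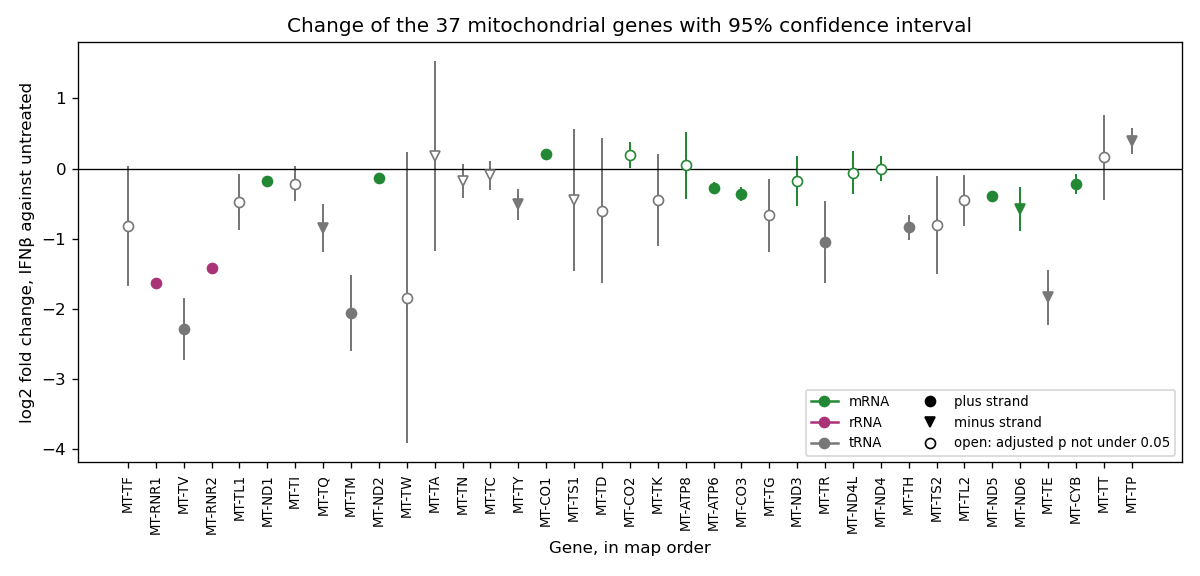
log2 fold change of the 37 mitochondrial genes, in map order, with the 95% confidence interval of limma (3 treated against 3 untreated libraries). The rRNA genes and MT-TV, MT-TM and MT-TE lie lowest among the filled symbols, the protein-coding genes lie between -0.57 and 0.21, and the tRNA genes have the widest intervals.

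The 2 mitochondrial rRNA genes fell to between 0.324 and 0.373 of their untreated level, a larger change than that of any protein-coding member. MT-RNR1 (chrM:648-1601) encodes the RNA of the small subunit of the mitochondrial ribosome, and MT-RNR2 (chrM:1671-3229) that of the large subunit. MT-RNR1 was at 767, 751 and 748 FPKM in untreated and at 239.8, 247 and 248 FPKM in treated libraries. The groups were far apart, with treated libraries at 0.324 of the untreated mean (log2 fold change -1.63, 95% interval -1.68 to -1.58, SE 0.02, adjusted p = 5.5e-08 by limma). MT-RNR2 was at 1597, 1617 and 1609 FPKM in untreated and at 593, 598 and 606 FPKM in treated libraries. It fell to 0.373 of the untreated mean (log2 fold change -1.42, 95% interval -1.47 to -1.38, SE 0.02, adjusted p = 5.6e-08). The ratio of MT-RNR2 to MT-RNR1 was 2.13 ± 0.0413 in untreated and 2.45 ± 0.0251 in treated libraries, all treated libraries being higher.

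The summed rRNA level went from 2363 ± 5.89 to 844 ± 10.6 FPKM. As a ratio to the summed protein-coding level it went from 0.0814 ± 0.00575 to 0.0308 ± 0.000149. Since the libraries were enriched for mRNA, ratios of rRNA to mRNA are not those of the cell. MT-ND1 lies a single tRNA gene downstream of MT-RNR2 on the same strand, and MT-RNR2 over MT-ND1 went from 1.15 ± 0.0139 to 0.487 ± 0.00854. Both rRNA genes were lower DEGs in all 17 alternatives.

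Because the libraries were enriched for mRNA, a list of 34 nuclear RNAs without poly(A) tails was read beside the rRNAs. Of these, 17 were in the table and 7 passed the filter. By limma 4 of the 7 were lower DEGs, beside 0.739% of all genes tested. None was higher, against 1 higher at an unadjusted p under 0.05 and none by limma-voom on the recovered fragments. RN7SL1, the RNA of the signal recognition particle, was at 9.22, 8.68 and 5.69 FPKM in untreated and 3.37, 2.54 and 4.05 FPKM in treated libraries (log2 fold change -1.21, adjusted p = 0.0084 by limma). RNA5-8SN1, a copy of the cytosolic 5.8S rRNA, was at 9.18 ± 3.85 and 2.40 ± 0.298 FPKM, and RNA5-8SN2, another copy whose near-identical sequence can share reads with it, rested on 42 fragments in 1 untreated library and at most 1 in the others. The 34 RNAs summed to 13.1 to 32.7 FPKM in untreated and to 6.13 to 8.36 FPKM in treated libraries. On the log2 scale the median change of the 7 was -1.79, and the most negative was -3.94. The highest value, 1.64, belonged to 1 of the 3 that did not pass the test. Most of the 7 thus shared the direction of the mitochondrial rRNAs, although not all did. The part that the enrichment had in the fall of the rRNAs, the tRNAs and MT-ND6, whose mRNA has no poly(A) tail, was not tested.

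**Figure D2:**
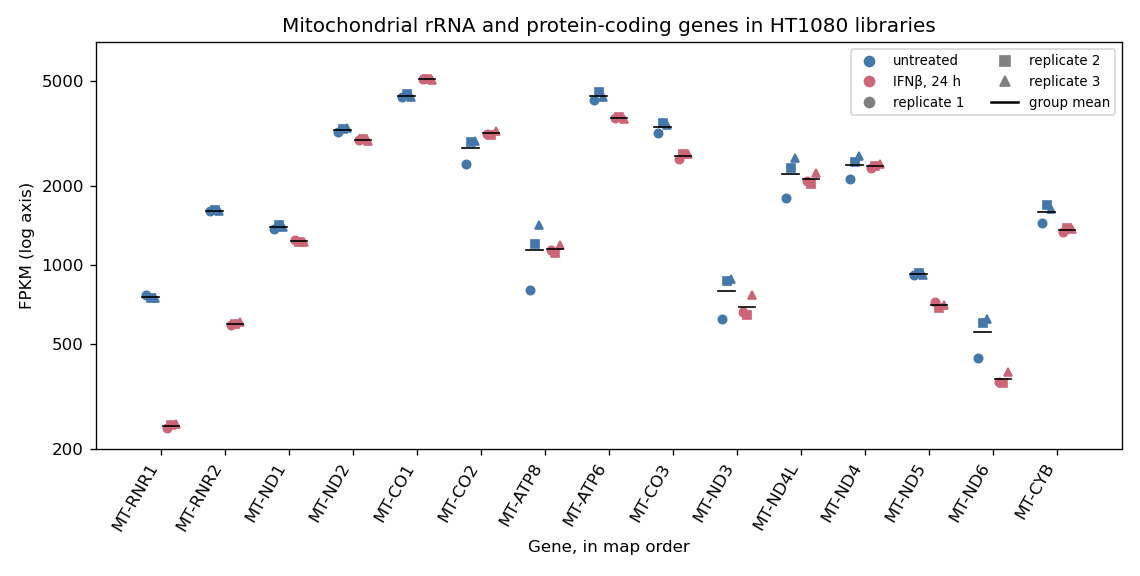
FPKM (log axis) of the 2 rRNA and 13 protein-coding mitochondrial genes in each library, in map order, with a line at the group mean. The treated values of MT-RNR1 and MT-RNR2 lie far below the untreated ones, MT-CO1 is higher in the treated libraries, and untreated replicate 1 is the lowest untreated library for MT-ATP8, MT-ND3, MT-ND4L and MT-ND6.

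The protein-coding genes moved much less than the rRNA genes, and not all in the same direction. MT-ND1, MT-ND2, MT-ND5, MT-ND6, MT-CYB, MT-CO3 and MT-ATP6 fell, MT-CO1 rose, and 5 genes did not pass the test. None was a DEG, and the log2 fold changes ran from -0.57 to 0.21 with a median of -0.18. Over all genes tested 17.5% fell and 15.2% rose. In 7 of the 13 every treated library was below every untreated one, beside 24.3% of all genes tested. In 2 every treated library was above, beside 22.3%. The summed protein-coding level was 29138 ± 1966 FPKM in untreated and 27426 ± 289 FPKM in treated libraries, and the groups overlapped because untreated replicate 1, at 26871 FPKM, was lower than all treated libraries. Leaving that library out, the treated level was 0.906 of the untreated one, against 0.941 with it.

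Untreated replicate 1 stood apart from untreated replicates 2 and 3 in the short mRNAs. Its FPKM over the mean of the other 2 was 0.609 to 0.738 for the 4 mRNAs under 600 bp (MT-ATP8, MT-ND3, MT-ND4L and MT-ND6). It was 0.821 to 0.971 for the 4 of 600 to 1000 bp and 0.840 to 0.988 for the 5 of 1000 bp or more. In the tRNA genes, which are shorter still, this ratio ran from 0.496 in MT-TD to 1.72 in MT-TG. Across the 13 mRNAs the ratio rose with length (Spearman's rho 0.82, a description over genes that share libraries). For nuclear protein-coding genes with a mean of at least 10 FPKM, the median of the same ratio was 0.893 over 9 genes under 600 bp, 0.926 over 39 of 600 to 1000 bp, 0.971 over 408 of 1000 to 2000 bp and 1.00 over 3775 longer ones. The log2 fold changes of the mRNAs under 600 bp are therefore given with and without this library. Ratios that involve these mRNAs are given with all libraries.

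**Figure D3:**
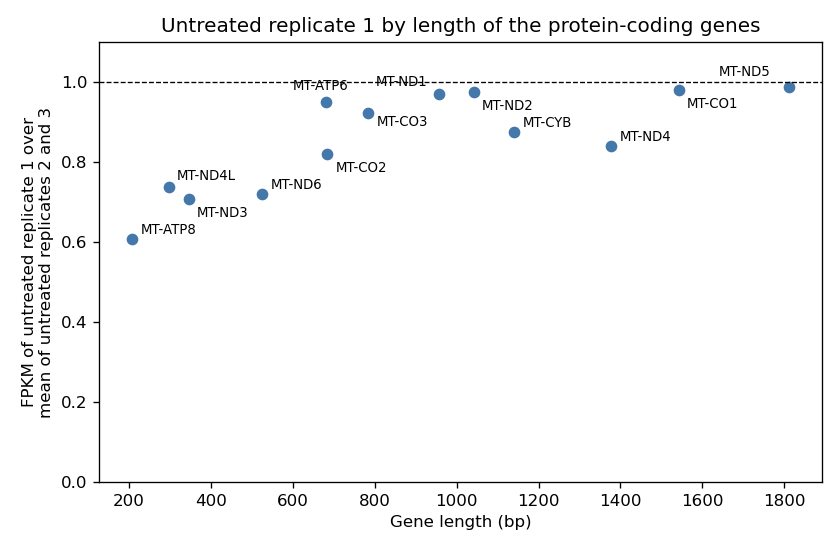
FPKM of untreated replicate 1 divided by the mean of untreated replicates 2 and 3, against gene length (bp), for the 13 protein-coding genes, with a dashed line at equality. MT-ATP8, the shortest, is lowest at 0.609 and MT-ND5, the longest, is at 0.988.

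Complex I, the NADH dehydrogenase that passes electrons to ubiquinone, has 7 subunits encoded here. Of the 7 mRNAs 4 fell, beside 17.5% of all genes tested. None rose by limma, limma-voom or at an unadjusted p under 0.05, and all 7 had a negative log2 fold change, although MT-ND1 turned to 0.028 under quantile normalization and MT-ND4 to 0.0096 with equal FPKM totals and 0.010 with median ratio scaling. With 1 library left out, MT-ND4 also turned to 0.0097 without treated replicate 1, 0.021 without untreated replicate 2 and 0.057 without untreated replicate 3, and MT-ND4L turned to 0.046 without untreated replicate 3. MT-ND5 (chrM:12337-14148), a subunit of the proton-pumping membrane arm, was at 914, 931 and 919 FPKM in untreated and 722, 686 and 707 FPKM in treated libraries. All treated libraries were lower, and the log2 fold change was -0.39 (95% interval -0.44 to -0.33, SE 0.02, adjusted p = 8.1e-05 by limma). MT-ND1 (chrM:3307-4262), which lies next to the ubiquinone site, was at 1367, 1418 and 1398 FPKM against 1243, 1223 and 1227 FPKM. It fell by 0.18 on the log2 scale (adjusted p = 0.0013), with no overlap between groups. MT-ND2 (chrM:4470-5511), a membrane-arm subunit, was at 3209, 3269 and 3303 FPKM against 2977, 3020.2 and 2947 FPKM. Its groups did not overlap, but the change of -0.13 (adjusted p = 0.0073) was the smallest of those called, and leaving out treated replicate 1, 2 or 3 in turn gave adjusted p = 0.075, 0.057 and 0.080.

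The other 3 complex I mRNAs from the plus strand did not pass the test. MT-ND4 (chrM:10760-12137) was at 2120.1, 2464 and 2587 FPKM in untreated and 2335, 2377 and 2419 FPKM in treated libraries, with treated values inside the untreated range. Its log2 fold change of -0.0030 had a 95% interval from -0.18 to 0.17 (adjusted p = 0.98 by limma). MT-ND4L (chrM:10470-10766), encoded just upstream in the same mRNA, was at 1795, 2326 and 2538 FPKM against 2083, 2022 and 2231 FPKM (log2 fold change -0.06, 95% interval -0.36 to 0.25, adjusted p = 0.78), and without untreated replicate 1 its log2 fold change was -0.20 (adjusted p = 0.053). The ratio of MT-ND4L to MT-ND4 was 0.924 ± 0.0694 and 0.888 ± 0.0361, with overlap. MT-ND3 (chrM:10059-10404) was at 622, 873 and 884 FPKM against 663, 645 and 767 FPKM, the groups overlapping through untreated replicate 1. Its log2 fold change was -0.18 (adjusted p = 0.41), and without that library it was -0.35 (adjusted p = 0.027). MT-ND5 over MT-ND4, neighbours on the map with 3 tRNA genes between them, fell from 0.388 ± 0.0389 to 0.297 ± 0.0111 without overlap.

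MT-ND6 (chrM:14149-14673) is the only protein-coding gene on the minus strand and had the most negative log2 fold change of the 13. It was at 442, 602 and 622 FPKM in untreated and 360.4, 356 and 392 FPKM in treated libraries. All treated libraries were lower, although untreated replicate 1 lay nearer to them than to its own group. The log2 fold change was -0.57 (95% interval -0.89 to -0.26, SE 0.13, adjusted p = 0.017 by limma). Without untreated replicate 1 it was -0.73 (adjusted p = 0.00052), whereas the call was lost without treated replicate 1 (adjusted p = 0.073), treated replicate 2 (0.070), untreated replicate 2 (0.062) or untreated replicate 3 (0.060). Relative to the mean of the 12 plus-strand mRNAs, MT-ND6 went from 23.2 ± 2.75% to 16.4 ± 0.712%, without overlap. Whether counting used strand is not given in the sources used here, so MT-ND6 reads cannot be told apart from reads of plus-strand precursor over the same bases. MT-ND6 is also the only mRNA of the 13 without a poly(A) tail. The part that the mRNA enrichment had in its fall was not tested.

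Complex III, the cytochrome bc1 complex, has a single mitochondrially encoded subunit, cytochrome b. MT-CYB (chrM:14747-15887) was at 1448, 1684 and 1625 FPKM in untreated and 1331, 1377 and 1367 FPKM in treated libraries. All treated libraries were lower, with a log2 fold change of -0.22 (95% interval -0.36 to -0.08, adjusted p = 0.026 by limma). Without untreated replicate 1 it was -0.28 (adjusted p = 0.0016). The call was lost when treated replicate 1 (adjusted p = 0.11), 2 (0.081) or 3 (0.087), or untreated replicate 2 (0.072) or 3 (0.097), was left out.

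Complex IV, the cytochrome c oxidase that passes electrons to oxygen, was where the protein-coding genes parted. MT-CO1 (chrM:5904-7445), the catalytic subunit, was at 4334, 4476 and 4359 FPKM in untreated and 5097, 5081 and 5049.9 FPKM in treated libraries. It was the only protein-coding member that rose, by 0.21 on the log2 scale (95% interval 0.15 to 0.27, SE 0.02, adjusted p = 0.0012 by limma). The call of MT-CO1 was lost under quantile normalization (0.08, adjusted p = 0.42). That scaling sets each value by its rank in the library. Among the highest genes, many of them mitochondrial, it can therefore shrink or enlarge a change. MT-CO1 was the most abundant mitochondrial mRNA in the treated libraries, and in the untreated ones its level did not differ beyond the spread from that of MT-ATP6. MT-CO3 (chrM:9207-9990), a structural subunit, was at 3173, 3471 and 3393 FPKM against 2525, 2632 and 2639 FPKM. It fell by 0.36 on the log2 scale (95% interval -0.46 to -0.27, SE 0.04, adjusted p = 0.00088), with no overlap. MT-CO2 (chrM:7586-8269), which takes up electrons from cytochrome c, was at 2424, 2937 and 2967 FPKM against 3133, 3121 and 3236 FPKM. All treated libraries were higher, but untreated replicate 1 widened the spread and the log2 fold change of 0.19 had an adjusted p of 0.12. Without that library the log2 fold change was 0.10 and the adjusted p was 0.035. MT-CO2 also passed the test with limma-voom (0.18, adjusted p = 0.0011). It passed under quantile normalization too (0.28, adjusted p = 9.7e-05), which for the reason above is no separate support for a rise.

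Ratios within a library do not depend on its scaling. MT-CO1 over MT-CO3 was 1.37, 1.29 and 1.28 in untreated and 2.02, 1.93 and 1.91 in treated libraries, so that all treated libraries were higher by about 1.49 times in the mean. MT-CO2 over MT-CO3 went from 0.828 ± 0.0574 to 1.22 ± 0.0285 and MT-CO1 over MT-ATP6 from 1.01 ± 0.0188 to 1.40 ± 0.0141, again without overlap. These ratios show unequal change and not which mRNA moved. Of the summed protein-coding FPKM, complex IV took 36.1 ± 0.831% in untreated and 39.5 ± 0.152% in treated libraries. The share of complex I went from 39.6 ± 0.710% to 38.2 ± 0.349%, that of MT-CYB from 5.44 ± 0.123% to 4.95 ± 0.0800% and that of complex V from 18.9 ± 0.175% to 17.4 ± 0.148%. None of these shares overlapped between groups.

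Complex V, the ATP synthase, has 2 subunits encoded here by a shared mRNA, and both belong to its membrane part. MT-ATP6 (chrM:8527-9207) was at 4221, 4522 and 4347 FPKM in untreated and 3598, 3658 and 3586 FPKM in treated libraries. All treated libraries were lower, and the log2 fold change was -0.27 (95% interval -0.35 to -0.19, SE 0.03, adjusted p = 0.0011 by limma), against -0.08 under quantile normalization (adjusted p = 0.42). MT-ATP8 (chrM:8366-8572), the shortest protein-coding member at 207 bp, was at 800.5, 1205 and 1423 FPKM against 1143, 1114 and 1187 FPKM. The treated values lay inside the untreated range, and its log2 fold change of 0.05 (95% interval -0.43 to 0.53, adjusted p = 0.89) turned to -0.19 without untreated replicate 1 (adjusted p = 0.13). MT-ATP8 over MT-ATP6 was 0.190, 0.266 and 0.327 in untreated and 0.318, 0.305 and 0.331 in treated libraries, with untreated replicate 1 the lowest of all 6.

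Position and other features of the mRNAs were read beside the changes. Along the 12 plus-strand mRNAs the log2 fold change and the map position had a Spearman's rho of -0.45, and -0.50 without untreated replicate 1, over genes that share libraries and precursor. MT-CO1 and MT-CO2 are neighbours among the mRNAs, with MT-ND2 upstream at -0.13 and, downstream, MT-ATP8 at 0.05, MT-ATP6 at -0.27 and MT-CO3 at -0.36. Over the 13 mRNAs rho was -0.016 with length, -0.022 with GC content and 0.40 with the untreated level. The 6 mRNAs with an incomplete stop codon had negative log2 fold changes in the main comparison, with a median of -0.18. Of the 6, 4 fell, beside 17.5% of all genes tested. MT-ND1 and MT-ND4 turned positive under the alternatives given above for complex I.

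The tRNA genes were the least covered members. Of the 22, 7 fell and 1 rose, beside 17.5% and 15.2% of all genes tested, and 14 did not pass the test. Their summed level went from 1595 ± 149 to 1261 ± 18.8 FPKM, without overlap. All are between 59 and 75 bp long, shorter than the 150-base reads, so a read over a tRNA gene that is longer than the gene holds bases of its neighbours too. How reads of precursor and of mature tRNA were shared between genes cannot be told from the values.

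The largest falls were in tRNA genes. MT-TV, which lies between the 2 rRNA genes with no base between, was at 55.8, 67.9 and 71.8 FPKM (88, 139 and 163 fragments) in untreated and 16.9, 12.8 and 10.5 FPKM (36, 22 and 21 fragments) in treated libraries. The groups did not overlap and the log2 fold change was -2.29 (95% interval -2.73 to -1.85, SE 0.18, adjusted p = 0.00021 by limma). MT-TM, directly before MT-ND2, was at 23, 42 and 26 fragments against 9, 6 and 6, a log2 fold change of -2.06 (95% interval -2.60 to -1.52, adjusted p = 0.00081). MT-ND2, by contrast, differed by -0.13. MT-TE, on the minus strand beside MT-ND6, was at 20.9, 31.7 and 27.3 FPKM against 7.53, 6.38 and 8.03 FPKM, a log2 fold change of -1.84 (95% interval -2.23 to -1.45, adjusted p = 0.00032). In all 3 every treated library was below every untreated one.

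MT-TR, between MT-ND3 and MT-ND4L, was at 102, 155 and 155 FPKM in untreated and 69.9, 48.0 and 82.0 FPKM in treated libraries, without overlap. Its log2 fold change was -1.05 (adjusted p = 0.018 by limma), with the call lost without treated replicate 1 (adjusted p = 0.060), untreated replicate 2 (0.067) or untreated replicate 3 (0.072). MT-TH (histidine), the gene after MT-ND4, was at 184, 177 and 211 FPKM against 102, 114 and 103 FPKM, with a log2 fold change of -0.84 (adjusted p = 0.00035), while MT-ND4 itself was at -0.0030. MT-TY (tyrosine), on the minus strand, was at 47.1, 44.9 and 52.9 FPKM against 34.0, 37.6 and 30.4 FPKM, with a log2 fold change of -0.51 (adjusted p = 0.0065). The seventh gene that fell averaged 11 fragments per library, and is MT-TQ (glutamine), named outside the rule because the count would be incomplete without it (log2 fold change -0.85, adjusted p = 0.0051).

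MT-TP, the last gene of the map before the control region and on the minus strand, was the tRNA gene that rose. It was at 203, 243 and 249.7 FPKM in untreated and 301, 303 and 301 FPKM in treated libraries. All treated libraries were higher, with a log2 fold change of 0.39 (95% interval 0.20 to 0.57, adjusted p = 0.0097 by limma). The ratio of MT-TP to MT-ND6, both on the minus strand, went from 0.421 ± 0.0328 to 0.819 ± 0.0441, without overlap.

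Of the well-covered tRNA genes that did not pass the test, MT-TC (cysteine) at 381 ± 46.5 and 355 ± 4.79 FPKM and MT-TN (asparagine) at 153 ± 20.1 and 135 ± 9.09 FPKM were the most abundant. Without untreated replicate 1 their log2 fold changes were -0.20 (adjusted p = 0.0092) and -0.29 (adjusted p = 0.019), and that of MT-TK (lysine) was -0.75 (adjusted p = 0.015), against -0.44 with it. MT-TG (glycine) was at 72.4 ± 24.5 and 44.0 ± 2.44 FPKM (log2 fold change -0.67, adjusted p = 0.058), and passed the test without untreated replicate 1 (-0.41, adjusted p = 0.010) or untreated replicate 2 (-0.84, adjusted p = 0.037). MT-TS2 (serine) at 46.4 ± 13.8 and 26.7 ± 7.87 FPKM and MT-TL2 (leucine) at 63.3 ± 8.73 and 46.3 ± 7.63 FPKM did not overlap between groups, with adjusted p-values of 0.080 and 0.063. MT-TL1 (leucine) was at 58.4 ± 10.1 and 41.8 ± 6.89 FPKM (adjusted p = 0.073, and 0.032 without untreated replicate 2), MT-TI (isoleucine) at 27.3 ± 2.33 and 23.6 ± 3.03 FPKM (adjusted p = 0.17, and 0.037 without treated replicate 3) and MT-TD (aspartic acid) at 21.6 ± 8.0 and 14.5 ± 6.16 FPKM (adjusted p = 0.35). The 7 tRNA genes that averaged under 20 fragments had log2 fold changes from -2.06 to 0.18. Of the 7, 2 fell, beside 17.5% of all genes tested.

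By strand, 4 of the 14 plus-strand tRNA genes fell by limma, with a median log2 fold change of -0.74. Of the 8 on the minus strand 3 fell and 1 rose, with a median of -0.31. Over all genes tested 17.5% fell and 15.2% rose. With limma-voom on the recovered fragments 8 of the 14 and 2 of the 8 fell, and at an unadjusted p under 0.05 by limma 8 of the 14 and 3 of the 8 fell, so the order of the strands by count depended on the test. None of the 14 rose in any of these. The summed plus-strand tRNA level went from 736 ± 50.6 to 414 ± 30.6 FPKM, with all treated libraries lower. The summed minus-strand level was 859 ± 100.4 and 847 ± 12.8 FPKM, with overlap, and MT-TC, MT-TP and MT-TN made up most of it. The difference between the strands was not tested. Strand here is that of the annotated gene. Since the use of strand in counting is not given, reads of precursor from the opposite strand cannot be told apart.

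Nuclear copies of mitochondrial genes can take up or give away their reads. Of 404 listed copies 15 passed the filter, and 3 had a mean of at least 1 FPKM. Of the 15, 1 rose and none fell by limma, beside 15.2% and 17.5% of all genes tested. None fell at an unadjusted p under 0.05, and 1 fell by limma-voom. MTND2P28, 98.4% identical to MT-ND2, was at 253 ± 45.1 and 215 ± 7.73 FPKM (log2 fold change -0.21, adjusted p = 0.26 by limma) and reached 7.50% of the level of MT-ND2. MTATP6P1, 98.5% identical to MT-ATP6, was at 222 ± 63.1 and 203 ± 23.6 FPKM (log2 fold change -0.09, adjusted p = 0.81), 5.33% of the level of MT-ATP6. MTCO1P12, 98.6% identical to MT-CO1, rose from 1.58 ± 0.211 to 2.23 ± 0.139 FPKM (log2 fold change 0.48, adjusted p = 0.017) but stayed at 0.0402% of the level of MT-CO1. The levels of MT-ND2, MT-ATP6 and MT-CO1 are uncertain by the reads that these copies share with them.

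Among the listed nuclear genes that act on mitochondrial RNA, PNPT1 was the only DEG. The counts below stand beside 17.5% of all genes tested that fell and 15.2% that rose. Of 17 genes of mitochondrial RNA synthesis and DNA upkeep, 5 fell, none rose and none was a DEG by limma, with a median log2 fold change of -0.12, and 1 rose at an unadjusted p under 0.05 and none by limma-voom. POLRMT, the mitochondrial RNA polymerase, fell from 25.9 ± 0.538 to 23.2 ± 0.309 FPKM and TFAM, which packs the mitochondrial DNA and starts transcription, from 32.6 ± 0.559 to 28.9 ± 0.186 FPKM (log2 fold changes -0.16 and -0.17, adjusted p = 0.0029 and 0.0010 by limma). Of 25 tested genes of mitochondrial RNA cutting and modification, 8 fell and 1 rose, none as a DEG, with a median of -0.067. Of 9 genes of mitochondrial RNA stability and decay, 2 fell and 1 rose. That 1 was PNPT1, the polynucleotide phosphorylase of mitochondria, at 19.8, 18.8 and 19.6 FPKM in untreated and 72.5, 69.8 and 70.2 FPKM in treated libraries. It rose by 1.86 on the log2 scale (adjusted p = 1.0e-07), with no overlap between groups. Whether any of these genes has a part in the levels of the mitochondrial RNAs was not tested.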

How the data were processed

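RNA was sequenced in 3 untreated and 3 IFNβ-treated libraries of HT1080 cells. The authors deposited FPKM for each gene and library, without pooling, and the submitters' processing notes name fastp, HISAT2 and StringTie and the build GRCh38. Versions, the counting settings, the annotation and the use of strand are not given in the sources used here. A group is untreated or IFNβ as the sample titles name it. Of the 62710 genes, 4436 are not in GENCODE release 29, so the locations from release 29 may differ from those of the authors. Fragments were recovered from the steps in the FPKM (whole within 0.0001 for 37 of 37 members at their release 29 length), giving 99.25% to 99.29% of the number each library was divided by. Intervals cover the spread between libraries.

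FPKM are not counts, so the count method named by the study was not the main test. Libraries were compared with limma 3.58.1 (R 4.3.3; lmFit, eBayes with intensity trend, two-sided) on log2(FPKM + 0.1) for the 20716 genes with a mean of at least 0.1 FPKM, with Benjamini-Hochberg adjustment over all of them. On this scale the change of low genes is understated. An adjusted p under 0.05 was a call, and a DEG also changed by 1 or more on the log2 scale. All adjusted p-values come from limma. Sums, shares and ratios have no p, since they are scores over the members. With 3 against 3 libraries an exact two-sided permutation test cannot go below 0.10. The procedure was tested on simulated data. Python 3.11.15 (pandas 2.3.3, numpy 2.4.6, scipy 1.17.1, Biopython 1.88, matplotlib 3.10.9) served for the other steps.

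The members and gene lists were chosen with earlier results of these data known. Named were all protein-coding and rRNA members, tRNA genes that were DEGs or averaged at least 20 fragments, nuclear copies and RNAs without poly(A) tails with a mean of at least 1 FPKM, and, from the lists of RNA synthesis, processing and decay, DEGs, POLRMT and TFAM. MT-TQ was named after its values were seen. Alternatives were pseudocounts of 1 and 0.01, no filter or a mean of at least 1 FPKM, 4 other scalings, eBayes without its trend, a block for the replicate number, limma-voom on recovered fragments, and each library left out.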

Additional observations from a re-analysis of the deposited data

How the results depend on the processing

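Under the 17 alternatives the 2 rRNA genes stayed lower and the count of tRNA genes that rose stayed at 1, while 5 to 6 mitochondrial genes were DEGs. The 7 protein-coding genes that fell became 3 under quantile normalization and 4 to 8 with 1 library left out, and the 1 that rose (MT-CO1) became 2 with limma-voom, MT-CO2 being the other, and 1 to 2 with 1 library left out. Under quantile normalization the 1 was MT-CO2 and not MT-CO1. The 7 tRNA genes that fell became 11 with a mean of at least 1 FPKM and 6 to 11 with 1 library left out. The median log2 fold change of the protein-coding genes, -0.18, became -0.018 under quantile normalization and -0.20 to -0.12 with 1 library left out. Quantile normalization also moved the median of all genes tested to -0.060 and turned MT-ND1 to 0.028 and MT-TC to 0.037. It ended the calls of MT-CO1, MT-ATP6, MT-ND2 and MT-CYB. This scaling sets each value by its rank in the library, and 11 of the 20 highest genes were mitochondrial. Its values for the highest genes follow their rank order, so calls lost or gained there do not measure the size of a change. MT-CYB also lost its call without a filter (adjusted p = 0.053, limma) and without the trend (0.068). MT-ND4 became 0.0096 with equal FPKM totals and 0.010 with median ratio scaling, and ran from -0.087 to 0.057 with 1 library left out. MT-ATP8 ran from -0.19 to 0.22 and MT-ND4L from -0.20 to 0.046 with 1 library left out. MT-RNR1, MT-RNR2, MT-ND5, MT-CO3, MT-TV, MT-TM, MT-TE, MT-TH, MT-TY and MT-TP kept their calls in all 17. The causes were not tested.

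The deviations of same-numbered libraries from their group means correlated at 0.053, -0.018 and 0.12, and those of other pairs at -0.15 to 0.099. With 3 libraries per group, such weak correlations cannot settle whether the replicate numbers pair the libraries. With the replicate block 12 tRNA genes fell in place of 7, and 7 protein-coding genes fell as before. Depth limits the tRNA genes, of which 7 averaged under 20 fragments per library.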
